A study of Sus scrofa with 12 samples.

Results

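The genes described here are markers of macrophages, named by 10 gene symbols: CD14, CD68, CD163, CSF1R, AIF1, TYROBP, FCER1G, LAPTM5, CTSS and FCGR2B. A gene was read from every probe set of the porcine array whose only symbol in the platform annotation was one of these. That gave 13 probe sets for 8 of the 10 genes, out of 6765 genes with a symbol of their own on the array. CD68 and CSF1R had no such probe set and were not analysed here. The samples were ovaries of 12 F2 sows from a cross of the Iberian and Meishan pig breeds, all taken at day 30 of pregnancy. Of these, 6 belong to the high prolificacy group, with the higher estimated breeding value, and 6 to the low prolificacy group, with the lower one. Each sow gave 1 array, described as an average of the right and left ovary, so the tissue is whole ovary with its corpora lutea, follicles, stroma and vessels. Sows are named below by group and animal number.

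Macrophages are phagocytes of the immune system that arise from blood monocytes or settle in tissues before birth. In the ovary they lie in the stroma, around follicles and in the corpus luteum, where they take up dying cells and secrete cytokines, and their number is known to change as the corpus luteum forms and regresses. CSF1R carries the growth signal on which most macrophages depend. CD14 presents bacterial lipopolysaccharide to Toll-like receptor 4, and CD163 takes up complexes of haemoglobin and haptoglobin. TYROBP and FCER1G are small membrane adaptors that pass signals from activating receptors through a tyrosine motif called ITAM. FCGR2B is the inhibitory receptor for immunoglobulin G and carries the opposing motif, ITIM. AIF1 binds calcium and actin in moving macrophages, LAPTM5 is a lysosomal membrane protein of blood cells, and CTSS is a lysosomal cysteine protease that trims the invariant chain of MHC class II. Most of these genes are also used by other leucocytes to some degree, so a level in whole ovary is not a cell count. Fewer cells and less RNA per cell cannot be told apart in such samples.

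Values are log2 expression values per probe set, so a step of 1 is a doubling. Array medians lay between 4.81 and 4.97, and rank correlations between sows between 0.973 and 0.993. A probe set was tested when it lay above 4 in at least 6 of the 12 sows, which held for 13390 probe sets of the array and for 11 of the 13 of the macrophage markers. Every one of the 8 genes kept at least 1 tested probe set. The 2 left out were the dimmer probe sets of CD14, at 2.05 to 2.09, and of LAPTM5, at 2.88 to 3.32 over the 12 sows, and they are described by those values only. Where a gene has several probe sets they are numbered from the brightest.

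No macrophage marker passed the test between high and low prolificacy sows. In limma with Benjamini-Hochberg adjustment over all 13390 probe sets, 0 of the 11 tested marker probe sets passed an adjusted p of 0.05, where 0% of all tested probe sets passed. Their adjusted p values ran from 0.888 to 0.997. At an unadjusted p under 0.05 there were also 0 of 11, although LAPTM5 came under it in 5 alternatives, against 5.64% of all tested probe sets, 2.26% with the higher and 3.38% with the lower mean in high prolificacy sows. The 2 groups overlapped in all 11, against 0.471% of tested probe sets without overlap. Of the 11, 7 had the lower mean in high prolificacy sows, against 52.4% of all tested probe sets, and 4 had the higher mean, against 47.6%. An exact permutation test over the 924 splits of the sows gave two-sided p values from 0.113 to 0.959, where the smallest possible is 0.00216. Their median log2 difference was -0.035, beside -0.010 over all tested probe sets.

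**Figure D1:**
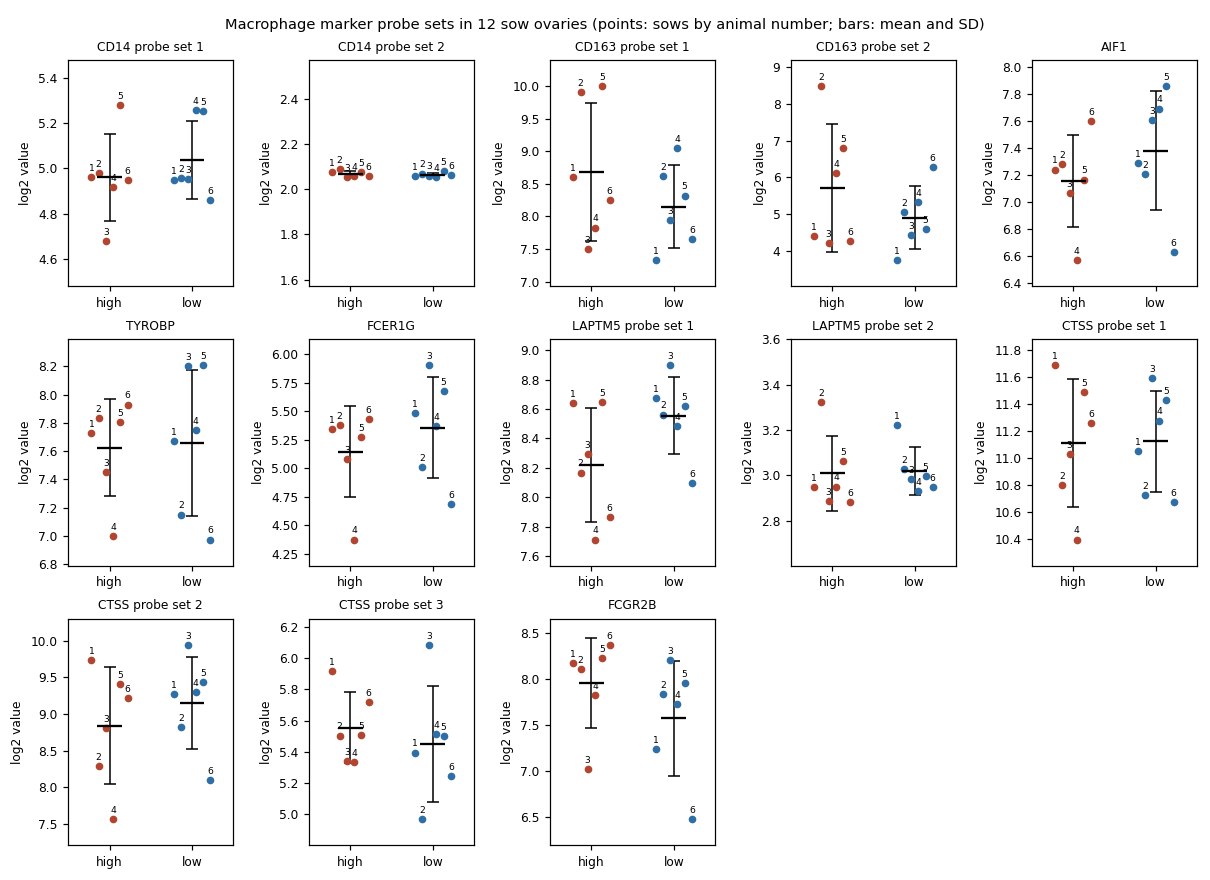
Log2 value of each of the 13 macrophage marker probe sets (vertical axes) in high (red, left) and low (blue, right) prolificacy sows, with 1 point per sow labelled by animal number and bars for mean and SD (n = 6 each). The groups overlap in all panels, and high 4 and low 6 lie at or near the bottom for AIF1, TYROBP, FCER1G and CTSS.

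The ITAM adaptors were read by 1 probe set each. TYROBP ran from 7.0 over a median of 7.77 to 7.93 in high and from 6.97 over 7.71 to 8.21 in low prolificacy sows. The low group spanned the whole range of the high group and beyond at both ends. Its log2 difference, high minus low, was -0.035 ± 0.24 (SE, n = 6 each) with a 95% interval from -0.54 to 0.47 (limma adjusted p = 0.991), and with 1 sow left out it ran from -0.17 without low 6 to 0.090 without high 4. FCER1G ran from 4.38 over 5.31 to 5.43 in high and from 4.69 over 5.43 to 5.90 in low prolificacy sows. High 4 stood apart at the bottom of its group, with the next high sow at 5.08. The FCER1G difference was -0.21 ± 0.23 (95% interval -0.70 to 0.28, limma adjusted p = 0.947). With 1 sow left out it ran from -0.34 without low 6 to -0.053 without high 4, and it was -0.098 without low 3.

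FCGR2B, the inhibitory Fc receptor, ran from 7.03 over 8.14 to 8.37 in high and from 6.48 over 7.78 to 8.20 in low prolificacy sows. The lowest values were those of high 3 among the high and low 6 among the low sows, and 5 of 6 high sows lay above the low group's mean. The difference was 0.38 ± 0.30 (95% interval -0.26 to 1.02, limma adjusted p = 0.929), and 0.16 without low 6. FCGR3A, an activating Fc receptor that lies next to FCGR2B in the RefSeq gene order of the Sscrofa11.1 assembly, had a mean of 8.81 ± 0.50 in high against 8.62 ± 0.30 in low prolificacy sows (SD). Over the 12 sows it followed FCGR2B with r = 0.78, given as a description. FCGR2B and FCGR3A have related sequences, and how far their probes share transcripts was not tested.

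CD163, the haemoglobin scavenger receptor, varied most of the markers. Its brighter probe set ran from 7.50 over 8.43 to 10.01 in high and from 7.33 over 8.13 to 9.05 in low prolificacy sows. High 5 at 10.01 and high 2 at 9.91 were the only sows above 9.05. The spread over the 12 sows was 6.40-fold, and its SD of 0.88 was larger than that of 96.3% of all tested probe sets. The difference was 0.53 ± 0.45 (95% interval -0.45 to 1.51, limma adjusted p = 0.929), and it was 0.27 without high 5 and 0.29 without high 2. The dimmer CD163 probe set ran from 4.20 over 5.26 to 8.49 in high and from 3.75 over 4.83 to 6.28 in low prolificacy sows, a span of 26.8-fold. High 2 was highest there, at 8.49, while high 5 stood at 6.79. Its difference was 0.80 ± 0.71 (95% interval -0.73 to 2.34, limma adjusted p = 0.931), and it was 0.25 without high 2 and 0.59 without high 5. High 2 also had the largest difference between the 3' and 5' ends of the actin control, a sign of RNA integrity, at 3.23, where the other sows ran from 1.95 to 2.98. With this difference as a covariate the CD163 differences were 0.021 in the brighter and -0.58 in the dimmer probe set. The actin difference ran from 1.95 to 3.23 in high and from 1.97 to 2.35 in low prolificacy sows. High 2, high 4, high 5 and high 6 lay above every low sow, so this covariate and the group cannot be fully told apart. The part of RNA integrity in the CD163 values was not tested further.

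The 2 CD163 probe sets were related over the sows. Their Pearson r over 12 sows was 0.68 (permutation p = 0.0146, adjusted p = 0.0195 over 4 pairs of probe sets of 1 gene) and Spearman's rho was 0.62 (p = 0.037, adjusted p = 0.037). Without the 2 sows farthest from the median r was 0.12, so the relation rests on those sows. Within groups r was 0.76 in high and 0.28 in low prolificacy sows.

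CD14, the lipopolysaccharide co-receptor, stayed in a narrow range near the lower end of the tested probe sets. It ran from 4.68 over 4.96 to 5.28 in high and from 4.86 over 4.96 to 5.26 in low prolificacy sows. High 5, low 4 and low 5 were the sows above 5. The difference was -0.077 ± 0.11 (95% interval -0.32 to 0.17, limma adjusted p = 0.967). With 1 sow left out it ran from -0.14 without high 5 to -0.020 without high 3, and it was -0.033 without low 4 and -0.034 without low 5. Its SD over the 12 sows was larger than that of 17.5% of tested probe sets. That share was 73.8% for FCER1G, 52.5% for the third CTSS probe set and 99.3% for the dimmer CD163 probe set, which were also dim. The authors' background correction draws dim probe sets toward a floor, and whether it compressed differences of CD14 was not tested.

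AIF1, the calcium-binding protein of macrophages, ran from 6.57 over 7.20 to 7.60 in high and from 6.63 over 7.45 to 7.86 in low prolificacy sows. High 4 and low 6 were the lowest sows of their groups, and the next lowest sow of all stood at 7.07. The difference was -0.23 ± 0.21 (95% interval -0.69 to 0.24, limma adjusted p = 0.935), and it was -0.38 without low 6, -0.13 without low 5 and -0.11 without high 4.

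Of the lysosomal markers, LAPTM5 had the smallest unadjusted p of all 11 probe sets, 0.0911 in limma (adjusted p = 0.888). It ran from 7.71 over 8.23 to 8.65 in high and from 8.10 over 8.59 to 8.90 in low prolificacy sows, and 2 of 6 high sows lay above the low group's mean. The difference was -0.33 ± 0.18 (95% interval -0.73 to 0.062), or 1.26-fold lower in high prolificacy sows. With 1 sow left out it ran from -0.43 without low 6 to -0.23 without high 4. Its unadjusted limma p was 0.0357 without low 6, 0.0402 without high 5, 0.0415 without high 1, 0.0389 with array weights and 0.0414 with the animal number as a block. It was above 0.05 under the other alternatives, and the adjusted p values of these 5 ran from 0.743 to 0.970. CTSS was read by 3 probe sets. The brightest ran from 10.40 over 11.14 to 11.68 in high and from 10.67 over 11.16 to 11.59 in low prolificacy sows, with a difference of -0.013 ± 0.23 (limma adjusted p = 0.997) that was 0.012 after quantile normalization. The second ran from 7.57 over 9.01 to 9.74 in high and from 8.10 over 9.28 to 9.94 in low prolificacy sows, with a difference of -0.31 ± 0.38 (limma adjusted p = 0.953). With 1 sow left out that difference ran from -0.52 without low 6 to -0.052 without high 4, with -0.49 without high 1, -0.20 without high 2 and -0.15 without low 3. The third ran from 5.34 over 5.51 to 5.91 in high and from 4.97 over 5.45 to 6.09 in low prolificacy sows, with a difference of 0.10 ± 0.17 (limma adjusted p = 0.976), which was 0.030 without high 1, 0.0060 without low 2, 0.23 without low 3 and 0.061 without low 6. The sign of the difference varied between the probe sets, but each of the 3 differences was smaller than its SE. Values of the 3 CTSS probe sets were related over the sows. The first and second CTSS probe sets gave r = 0.94 and rho = 0.96 (permutation adjusted p = 4e-05 and 8e-05), and r was 0.91 without the 2 farthest sows. The third gave r = 0.76 with the first and 0.64 with the second (permutation adjusted p = 0.00688 and 0.025).

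**Figure D2:**
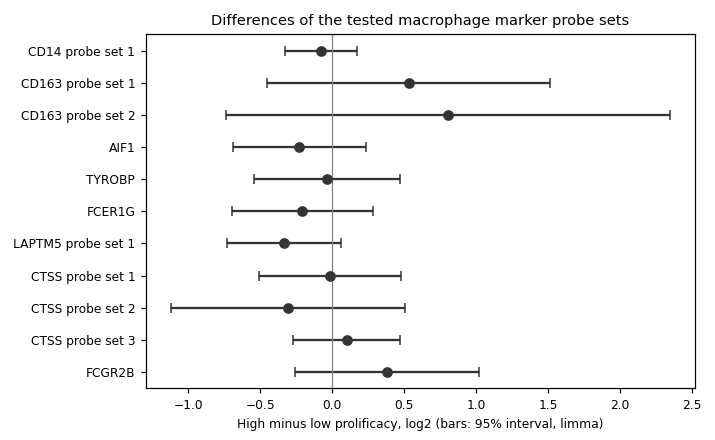
Log2 difference, high minus low prolificacy (horizontal axis), of the 11 tested macrophage marker probe sets, as point and 95% interval from limma (n = 6 each). All 11 intervals hold 0, and the widest are those of the 2 CD163 probe sets.

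Across sows, some of the markers varied together whichever group the sow belonged to. Taking each gene by its brightest probe set, r was above 0 in 28 of 28 pairs of genes. Of all pairs of tested probe sets 50.5% were above 0. The median r was 0.52, where the median over all pairs of tested probe sets was 0.0051. With the mean of all tested probe sets of a gene, r was above 0 in 23 of 28 pairs and the smallest was -0.25. By the brightest probe sets, after adjustment over the 28 pairs, 7 pairs passed by Pearson's r and 4 by Spearman's rho, with 3 passing both. These 3 were the pairs among AIF1, TYROBP and FCER1G. The genes were chosen as markers of 1 cell type, and each array value enters all pairs of its sow, so the 28 pairs are not independent.

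The adaptors TYROBP and FCER1G were closest, with r = 0.94 and rho = 0.86 (permutation p = 3e-05 and 0.00093, adjusted p = 0.00084 and 0.00868). Without the 2 sows farthest from the median of TYROBP r was 0.91, and within groups it was 0.98 in high and 0.97 in low prolificacy sows (exact permutation p = 0.00417 and 0.00556). AIF1 followed FCER1G with r = 0.89 and rho = 0.89 (permutation p = 0.00019 and 0.00033, adjusted p = 0.00266 and 0.00868), and r was 0.71 without the 2 farthest sows. AIF1 followed TYROBP with r = 0.88 and rho = 0.81 (permutation p = 0.00029 and 0.00229, adjusted p = 0.00271 and 0.016), and r was 0.72 without the 2 farthest sows. Within high and low prolificacy sows r was 0.94 and 0.85 for AIF1 with FCER1G, and 0.95 and 0.89 for AIF1 with TYROBP.

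The other 4 pairs that passed by r joined lysosomal markers to this group, and none passed by rho. CTSS followed TYROBP with r = 0.81, FCER1G with r = 0.80 and AIF1 with r = 0.70 (permutation p = 0.0014, 0.0012 and 0.0111, adjusted p = 0.00784, 0.00784 and 0.0495). LAPTM5 followed FCER1G with r = 0.69 (permutation p = 0.0124, adjusted p = 0.0495). Their rho values were 0.69, 0.64, 0.59 and 0.55 (permutation adjusted p = 0.0598, 0.104, 0.126 and 0.136). Without the 2 sows farthest from the median of the adaptor or of AIF1, r was 0.65 for TYROBP with CTSS, 0.57 for FCER1G with CTSS, 0.37 for AIF1 with CTSS and 0.35 for FCER1G with LAPTM5. The last 2 were the lowest, and they depended on which sows were left out. Without the 2 sows farthest from the median of the other gene of the pair, r was 0.83, 0.78, 0.69 and 0.73 in the same order. Within high prolificacy sows r was 0.70, 0.74, 0.64 and 0.53 in that order, and within low prolificacy sows 0.98, 0.95, 0.86 and 0.89.

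No relation of CD163 with the adaptors passed. Its r was 0.18 with FCER1G, 0.29 with TYROBP, 0.23 with AIF1, 0.23 with CTSS and 0.13 with LAPTM5, and their permutation adjusted p values ran from 0.431 to 0.696. It was nearer to CD14, with r = 0.62 and rho = 0.85 (permutation p = 0.0297 and 0.00091, adjusted p = 0.0894 and 0.00868), and r was 0.37 without the 2 sows farthest from the median of CD14 and 0.68 without the 2 farthest from that of CD163. This pair passed by r with group means removed (r = 0.75, permutation adjusted p = 0.018), after quantile normalization (r = 0.71, permutation adjusted p = 0.0433) and without high 2 (r = 0.76, permutation adjusted p = 0.0317). With FCGR2B the r of CD163 was 0.58 and rho was 0.56 (permutation adjusted p = 0.111 and 0.136). Whether the correlations of CD163 differ from those of the adaptors was not tested.

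**Figure D3:**
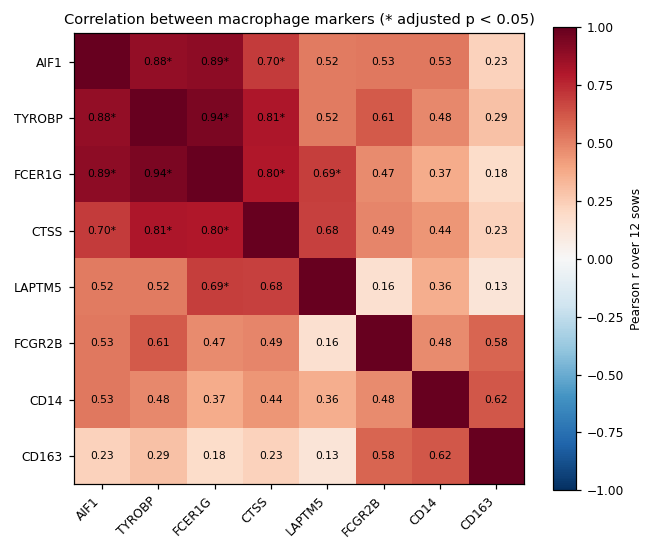
Pearson r over 12 sows between the brightest probe sets of 8 macrophage markers (both axes list the genes, colour and number give r), with a star where the permutation p adjusted over 28 pairs is under 0.05. The starred pairs lie among AIF1, TYROBP, FCER1G, CTSS and LAPTM5, and CD163 has its highest r with CD14.

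The number of related pairs was lowest with high 4 and low 6 both left out. Without both, r was above 0 in 23 of 28 pairs and 1 pair passed by r, TYROBP with FCER1G (r = 0.91, permutation adjusted p = 0.0202). Without high 4 alone 3 pairs passed, again those among AIF1, TYROBP and FCER1G. Without low 6 alone 5 passed, as many as without high 3, low 1, low 3, low 4 or low 5. High 4 and low 6 came from different groups, and they had the lowest values of AIF1, TYROBP, FCER1G and the brightest CTSS probe set. Leaving out the lowest sows narrows the range of these genes, which can lower r by itself. The mean log2 level of the 8 markers was 7.08 in high 4 and 7.01 in low 6, the lowest of the 12. Genes of all leucocytes were lowest in the same sows, at a mean of 4.40 in high 4 and 4.31 in low 6, as were scavenger and C1q genes, at 5.83 and 5.80. Luteal cell markers were highest of all sows in high 4, at 13.76, and stood at 13.56 in low 6. Granulosa and follicle markers were lowest in high 4, at 4.03, and second highest in low 6, at 6.35. The part of tissue make-up in the low values of these sows was not tested.

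Genes outside the marker set were ranked by how closely they followed the mean profile of the 8 markers over sows. Values were centred but not scaled, so markers of larger spread, CD163 most of all, weigh more in that profile. Among 5071 genes with a tested probe set, the 10 whose values followed the mean centred profile of the 8 markers most closely over the 12 sows had r from 0.82 to 0.94, as a description of the highest values among many. They were SRGN, FCGR3A, CD53, C1QC, FAM26F, FOLR1, CD40, SKAP2, ECSCR and SH3BP5. SRGN, the proteoglycan of blood cell granules, came first with r = 0.94, at 8.67 in high 4 and 8.92 in low 6, where the other sows ran up to 11.01. CD53, a tetraspanin of leucocytes, had r = 0.89. It stood at 5.20 in high 4 and 4.66 in low 6, and between 6.87 and 8.05 in the other 10 sows. C1QC, a chain of complement C1q that macrophages secrete, had r = 0.88, and CD40, a receptor of antigen-presenting cells, had r = 0.85. ECSCR is known from endothelial cells. The mean of the endothelial markers did not share the low value of high 4. It was 7.33 there, second highest of the 12 sows, and 6.94 in low 6.

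**Figure D4:**
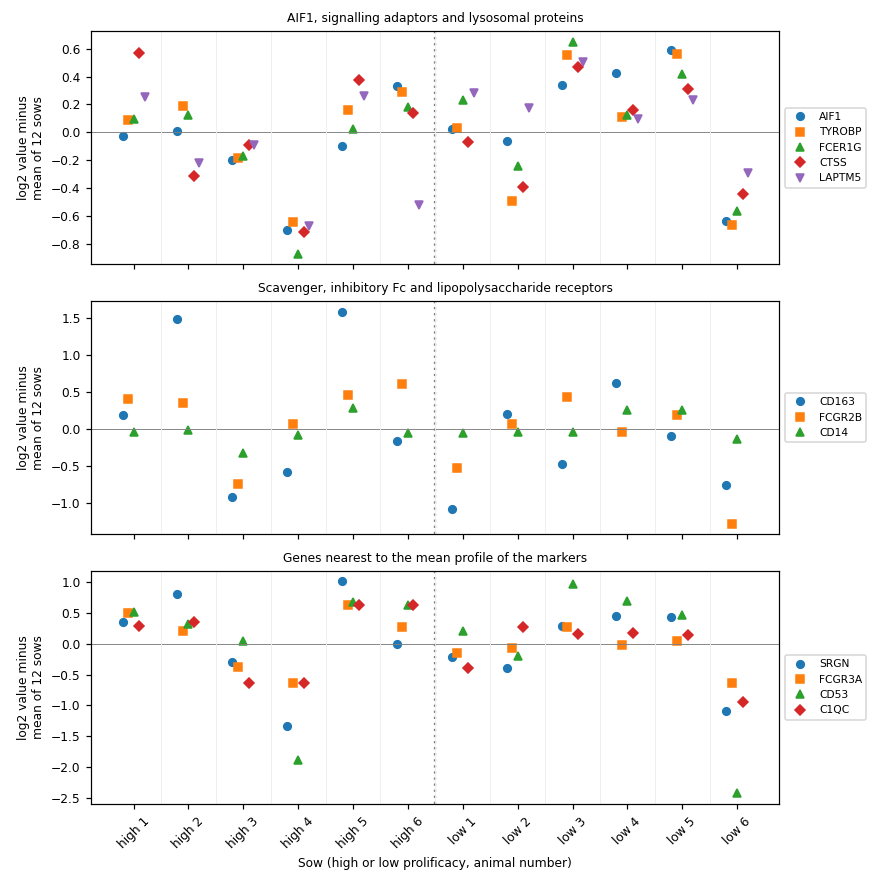
Log2 value minus the mean over 12 sows (vertical axes) in each sow (horizontal axis, high prolificacy left of the dotted line and low right) for 8 macrophage markers and for 4 genes nearest to their mean profile. High 4 and low 6 lie low for AIF1, TYROBP, FCER1G, CTSS, SRGN and CD53, and CD163 is highest in high 2 and high 5.

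The nearest genes differed from marker to marker. TYROBP was followed most closely by GMFG, an actin regulator of blood cells (r = 0.94), the chemokine CXCL14 (r = 0.93) and ITGB2, the beta chain of leucocyte integrins (r = 0.86). FCER1G was followed by CXCL14 (r = 0.94), FNDC1 (r = 0.90) and the folate receptor FOLR1 (r = 0.89), and AIF1 by FOLR1 (r = 0.91), CXCL14 (r = 0.90) and KMO, an enzyme of tryptophan breakdown (r = 0.86). CXCL14 was lowest in high 4, at 4.22, and low 6, at 4.82, and highest in low 3, at 8.31. CD163 was followed by C4BPA, a chain of the complement inhibitor C4b-binding protein (r = 0.92), the cytokine IL18 (r = 0.89) and the kinase MAP4K4 (r = 0.87). C4BPA reached 11.15 in high 5 and 11.02 in high 2, the same sows in which CD163 was highest. FCGR2B was followed by C1QC (r = 0.87), CTNNAL1 (r = 0.84) and DHRS4 (r = 0.84). CTSS was followed by PRELID3B (r = 0.93), DDX1 (r = 0.92) and MCMBP (r = 0.87), LAPTM5 by ANKMY2, RPS27L and PCMT1 (r = 0.85, 0.85 and 0.83), and CD14 by UFD1, SLC25A20 and ITIH4 (r = 0.84, 0.84 and 0.83). These values have no test, and they are the highest of 5071 in each case.

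Genes of the pathways in which the markers work were described in 7 lists. None of their tested genes passed in limma, neither at an adjusted p of 0.05 nor at an unadjusted p under 0.05, while 7 of the named ones came under an unadjusted p of 0.05 in some alternative. Of ligands of CSF1R and macrophage transcription factors, 4 of 8 listed genes were tested, 3 higher and 1 lower in high prolificacy sows, with a median difference of 0.11. SPI1, the transcription factor of the myeloid lineage, stood at 4.55 ± 0.54 in high against 4.25 ± 0.31 in low prolificacy sows (SD), IRF8 differed by 0.20, and CEBPB by -0.29. With the actin difference as a covariate SPI1 differed by 0.69 (limma adjusted p = 0.236) and CEBPB by -0.93 (limma adjusted p = 0.189), both under an unadjusted 0.05. In that setting 2178 of the 13390 tested probe sets were under it, against 755 without the covariate. The CSF1R ligand IL34 differed by 0.033. Of ITAM and ITIM partners 3 of 16 were tested, with a median of 0.052, SIRPA, the receptor for CD47, at -0.21, FCGR3A at 0.19 and VAV1 at 0.052. LYN lay above 4 in 4 sows, BTK in 1 and FCGR1A in 0.

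Of the lipopolysaccharide pathway that CD14 serves, 5 of 13 genes were tested, 3 higher and 2 lower, with a median of 0.023. TLR2 had 6.13 ± 0.69 in high against 5.59 ± 0.28 in low prolificacy sows (SD), differing by 0.54 (limma adjusted p = 0.888), and 0.27 without high 2, which stood highest at 7.48. TLR4, the receptor itself, differed by 0.40, and by 0.20 without high 2, its partner LY96 by -0.15 and the adaptor MYD88 by -0.17. Of scavenger and C1q genes 8 of 15 were tested, 4 higher and 4 lower, with a median of 0.033. The mannose receptor MRC1 differed by 0.32, and by 0.099 without high 2, the haem oxygenase HMOX1 by 0.35 and C1QA by 0.30. HMOX1, which breaks down the haem that CD163 brings in, stood at 9.44 in its highest high sow and gave -0.064 without high 2. Of chemokines and their receptors 4 of 14 were tested, with CXCL12 at -0.39, CCL4 at 0.30, CXCR4 at 0.23 and the monocyte chemokine CCL2 at -0.0024.

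Lysosomal proteases and cystatins around CTSS had 14 of 16 listed genes tested, 12 with the lower mean in high prolificacy sows and 2 with the higher, where 52.4% of all tested probe sets were lower. Their median difference was -0.12, beside -0.010 over all tested probe sets, and none passed. PSAP, the precursor of the saposins, had 11.74 ± 0.11 in high against 11.91 ± 0.17 in low prolificacy sows (SD), differing by -0.18 (limma adjusted p = 0.896). CTSZ differed by -0.36, CTSB by -0.099 and CTSK, which lies next to CTSS in the RefSeq gene order, by -0.29, while CD74, the invariant chain that CTSS trims, differed by 0.19. Lysosomal genes are active in every cell of the ovary, so the list does not belong to macrophages alone. Of genes of all leucocytes 7 of 17 were tested, 5 higher and 2 lower, with a median of 0.087, ARHGDIB at 0.20, PLEK at 0.22 and ITGB2 at -0.17.

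**Figure D5:**
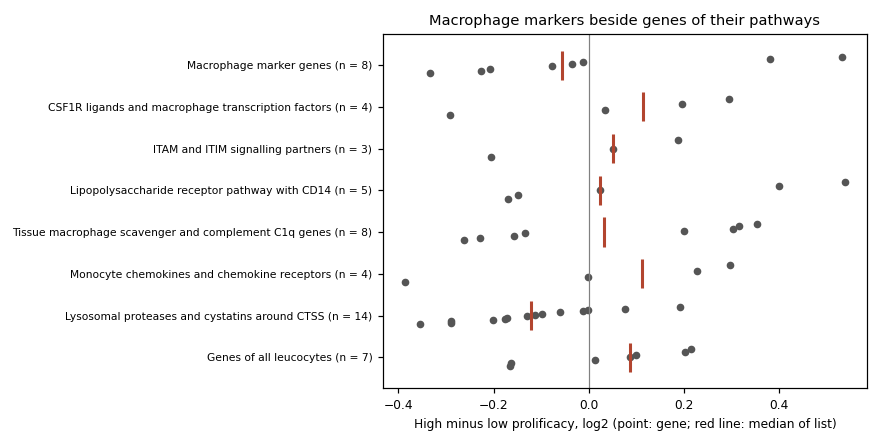
Log2 difference, high minus low prolificacy (horizontal axis), of each tested gene (points, brightest probe set) of the macrophage markers and 7 lists of their pathways, with the median of each list as a red line. The medians run from -0.12 for the lysosomal list to 0.11, and no gene passed the limma adjusted threshold.

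Markers of T cells, B cells, NK cells and neutrophils were mostly at the floor of the scale. Of T cell markers 1 of 10 genes on the array was tested, CD247, at 4.31 to 4.55, and CD3D, CD3E, CD3G and CD4 stayed between 1.86 and 2.47 in all sows. Of B cell, NK and neutrophil markers none was tested, with 1, 4 and 5 genes on the array. Their mean levels ran from 2.39 to 2.62, 2.24 to 2.34 and 2.27 to 3.37 in high prolificacy sows and from 2.42 to 2.50, 2.25 to 2.39 and 2.31 to 2.72 in low prolificacy sows. Of the neutrophil markers, S100A9 and S100A12 lay above 4 in 2 sows each, reaching 6.45 and 4.47. The neutrophil mean was highest in high 2, at 3.37. PTPRC and ITGAM, which macrophages also carry, stayed under 4 in all 12 sows, at 3.15 to 3.34 and 2.20 to 2.25. Of dendritic cell markers 1 of 3 genes on the array was tested, CD83, a surface protein of mature dendritic cells that other cells also make, at 9.38 to 11.77 in high and 10.59 to 11.47 in low prolificacy sows. Its difference was -0.20, and CCR7 and XCR1 stayed under 4 in all sows. A probe set at the floor may also be one that reads its gene poorly, and GCRMA values do not show which.

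Mast cell markers, of which FCER1G is a partner in the IgE receptor, had 3 of 3 genes on the array tested. None passed in limma, and their differences were 0.38 for KIT, 0.18 for MS4A2 and 0.23 for GATA2. Whether these genes read mast cells in whole ovary was not tested. Luteal cell markers had a mean level of 13.45 ± 0.26 in high against 13.47 ± 0.11 in low prolificacy sows (SD), and endothelial markers of 7.14 ± 0.36 in high against 7.13 ± 0.11 in low prolificacy sows. Liver and plasma protein genes ran from 3.42 to 4.96 in high and from 3.45 to 9.48 in low prolificacy sows. Albumin stood above 8 in high 5, low 1, low 3 and low 4. Without these 4 sows the difference of FCER1G was -0.0014, that of AIF1 -0.081, that of TYROBP 0.14 and that of FCGR2B 0.48. The CD163 differences were 0.22 in the brighter and 0.19 in the dimmer probe set, the CTSS differences 0.093, -0.061 and 0.32, and those of CD14 and LAPTM5 -0.13 and -0.29. In that setting 0 of the 11 probe sets passed the limma adjusted threshold.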

How the data were processed

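The deposited values are log2 expression values per probe set of an Affymetrix porcine array, 1 array for each of 12 sows. GCOS and GCRMA, named per the submitters' processing notes, were the authors' programs for signal, background and normalization, with no version given. The range of the values, 0.97 to 15.34, shows the log2 scale. RNA was isolated from frozen ovary and labelled with biotin, per the labels' protocols. Precision is limited by the number of sows, and relatedness of the sows is not given in the labels.

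The 124 control probe sets were left out. The group comparison was a limma 3.58.1 fit (lmFit, then eBayes, R 4.3.3) without covariates over the 13390 probe sets above 4 in at least 6 sows, with two-sided tests and Benjamini-Hochberg adjustment. Correlations used 100000 two-sided permutations, and all permutations within a group. The steps were tested on simulated data. Alternatives were other filters, normalizations, moderation, array weights, covariates, an exact permutation test, the animal number as a block and sows left out. Names of 62 porcine control probe sets were found displaced by 21 places, and the actin difference uses the moved names. Animal numbers are shared by the groups, but the deviations of same-numbered sows correlated from -0.46 to 0.17, so the sows were treated as unpaired.

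Members and lists were chosen with earlier results of these data known. Named are all member probe sets, up to 3 genes of each pathway list by smallest p, the 10 genes nearest to the mean profile and the 3 nearest to each member, with the other genes of a list chosen after their values were seen.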

Additional observations from a re-analysis of the deposited data

Results flagged for a closer look

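In groups of 6 sows, 26 groups of values of macrophage marker probe sets were examined for a sow far from the rest of its group. By chance about 1 in 20 groups would be marked, and 2 were. FCER1G in high 4 stood at 4.38, with the nearest high prolificacy sow at 5.08 and the highest at 5.43. The dimmer probe set of LAPTM5 in low 1 stood at 3.22, with the nearest low prolificacy sow at 3.03, at a level under the limit of 4 used for testing.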

How the results depend on the processing

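No marker probe set passed the adjusted threshold under the alternatives it was tested in, which were all 25 for 7 of the 11 and all but the stricter filter above 6 for the others. Over all tested probe sets none passed, except 1 without low 1, so counts with 1 sow left out ran from 0 to 1. The number under an unadjusted p of 0.05 was 755, and 540 to 928 with 1 sow left out. It was 2178 with the 3' minus 5' actin difference as covariate. With the animal number as a replicate block, which the labels do not present as a pairing, 662 probe sets were under 0.05, LAPTM5 among them, and none passed the adjusted threshold. At an unadjusted p under 0.05 there were 20 values of markers and named genes over all alternatives, 5 of them of LAPTM5 and 6 of CTSZ, though none in the fit reported. Of 787 recomputed differences of markers and pathway genes, 34 changed sign, all among differences that had not passed. The cause was not tested. With the actin covariate the differences were -0.58 for the dimmer CD163 probe set, 0.24 and 0.19 for the first and second CTSS probe sets, -0.17 for HMOX1, -0.13 for CXCR4, -0.13 for PLEK and 0.065 for ITGB2, and without a change of sign -0.93 for CEBPB and 0.69 for SPI1. The first CTSS probe set gave 0.012 after quantile normalization, 0.0061 after median centring, 0.0086 with array weights, 0.084 without high 2 and high 3, and 0.11 with albumin as covariate, where TYROBP gave 0.087. MYD88 gave 0.071 with array weights, and without high 2 and high 3 HMOX1 gave -0.11 and PLEK -0.018. Without the 4 sows with albumin above 8, chosen after seeing the data, the values were 0.14 for TYROBP, 0.093 for the first CTSS probe set, 0.071 for SIRPA and 0.061 for ITGB2. With 1 sow left out TYROBP ran from -0.17 to 0.090, the first CTSS probe set from -0.13 to 0.13, VAV1 from -0.023 to 0.18, HMOX1 from -0.064 to 0.57, C1QA from -0.045 to 0.45 and PLEK from -0.062 to 0.37. Of 28 correlations, 7 passed over all sows and 3 to 10 with 1 sow left out, lowest without high 4 and highest without high 6. In alternatives added after seeing the data, 1 passed without high 4 and low 6 and 3 without the sows with albumin above 8.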
